A study of Mus musculus with 8 samples.

Results

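A set of 10 genes of the calcium release and egg activation machinery was followed through the transcriptome and the translatome of mouse oocytes at metaphase II (MII). The set was chosen by gene symbol: the inositol trisphosphate (IP3) receptors Itpr1, Itpr2 and Itpr3, the calcium/calmodulin-dependent kinase II genes Camk2g and Camk2d, the calcium pump Atp2a2, the channels Trpm7 and Cacna1h, the store sensor Stim1 and the calcineurin catalytic subunit Ppp3ca. Of these 10 genes, 8 had a row both in the table of total mRNA (10530 genes) and in the table of ribosome-bound mRNA (8898 genes). Camk2d and Stim1 had a row in neither table and were not analysed here.

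At fertilisation the sperm delivers a phospholipase C that makes IP3 in the egg, and IP3 opens its receptor in the endoplasmic reticulum so that calcium is released in repeated waves. Each wave acts through calmodulin and CaMKII to end the metaphase II arrest and through the secretory machinery to empty the cortical granules, and pumps and plasma membrane channels refill the store between waves. The MII oocyte carries this machinery before the sperm arrives. It makes almost no new RNA, so the choice of which stored mRNAs are loaded on ribosomes is a main control over its proteins.

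The oocytes came from RiboTagF/F;Zp3-Cre females on a C57BL/6 background, in which Cre driven by the oocyte promoter of Zp3 puts an HA tag on a ribosomal protein of the oocyte. Young females were 1 month old. Old females were 12 to 15 months old and were retired breeders, so age and breeding history cannot be told apart. Young and old females alike were superovulated (PMSG at 5 IU, then hCG at 10 IU after 48 h), and MII oocytes were taken 13 h after the hCG dose in pools of 200. There were 2 pools per age, and from each of the 4 pools the ribosome-bound RNA pulled down with the tag (HA) and the RNA of 10% of the same lysate (input) were sequenced. Values are read counts relative to library size (CPM), scaled by the study separately for the HA and the input libraries, and translation efficiency (TE) is HA CPM divided by input CPM of the same pool. The libraries held between 37817382 and 59688578 reads on genes in HA and between 38276453 and 60052814 in input.

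Of 10 oocyte markers, 9 were present in both tables, with a summed input level between 8450 and 9615 CPM, and Figla was absent. Of 17 cumulus and granulosa cell markers, 10 were in the input table at a summed 35.5 to 202 CPM. In HA, 3 of the 17 were present, namely Fshr, Cyp19a1 and Ptgs2. They summed to 83.8 and 81.7 CPM in the old pools and 156 and 182 CPM in the young pools. The same 3 were in input, with Inha, Inhba, Has2, Tnfaip6, Kitl, Fst and Star. Foxl2, Amh, Amhr2, Ptx3, Areg, Ereg and Cyp11a1 were absent from both tables. Of the oviduct markers only Epcam was present, in input, with 57.6 CPM in Old replicate 1 and at most 3.29 CPM in the other pools. No leukocyte or erythrocyte marker was present. Among genes with a mean of at least 10 CPM, the HA libraries of the 2 old pools differed from each other by a median of 1.32 on the log2 scale, against 0.65 between the 2 young pools. For single genes the order could be the other way, as for Trpm7 and Ppp3ca, whose young HA libraries differed more than their old ones.

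Stored oocyte mRNAs are switched on by elements in their 3′-UTR. The cytoplasmic polyadenylation element (CPE) nearest the transcript end is therefore shown for 4 genes. They are the most abundant pump and the main receptor of the set, and Trpm7 and Ppp3ca. Of the set, only Trpm7 and Ppp3ca had ages that overlapped in neither input nor HA and an order that was opposite between input and HA. The search used the letters TTTTAT and TTTTAAT on the mRNA strand only, in the longest annotated 3′-UTR, and neighbouring matches may share a base. Capitals mark only the matched element nearest the transcript end, coordinates are GRCm38 and the sequence is that of GENCODE M21. In Trpm7 the bases just before it hold another match, TTTTAAT, left in lower case.

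Itpr1 (chr6:108550886-108550915, plus strand): gccacgtttgggTTTTATttctttgtcaca

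Atp2a2 (chr5:122456412-122456441, minus strand): atgtctaatgtaTTTTATtgtaacagacat

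Trpm7 (chr2:126791748-126791777, minus strand): actaattttaatTTTTATttggaaggagca

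Ppp3ca (chr3:136936799-136936828, plus strand): aaagaaaaagcaTTTTATattactactcaa

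The element lay 84 bases from the annotated transcript end in Atp2a2, 195 in Trpm7, 206 in Itpr1 and 911 in Ppp3ca. Atp2a2 held 5 matches, Trpm7 held 4, Itpr1 and Ppp3ca 2 each, Itpr2 and Itpr3 1 each, and the 3′-UTRs of Camk2g and Cacna1h held no match. Of all genes in the HA table with an annotated 3′-UTR, 70.5% held at least 1 match, and 41.1% of those long enough held 1 in the last 300 bases. Trpm7 had 3 of its 4 matches in those last 300 bases, and Itpr1 and Atp2a2 had 1 each. The matches are a description of the sequence.

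The 8 genes spanned more than 2 orders of magnitude in total mRNA. Levels were compared between genes as input CPM per kb of the longest annotated coding transcript, given as mean ± SD over the 4 pools. Atp2a2, the SERCA2 pump that returns calcium to the endoplasmic reticulum, stood highest at 198 ± 47.7. Camk2g, the kinase gene that couples the calcium rise to meiotic exit in the mouse egg, followed at 79.7 ± 20.9. Itpr1 had 26.1 ± 5.01 and Itpr2 21.7 ± 2.74, and their ranges over pools overlapped. Cacna1h, the T-type channel CaV3.2, had 12.9 ± 1.86. Trpm7, a channel joined to a kinase that carries magnesium and calcium, had 5.63 ± 2.58 and Ppp3ca had 3.36 ± 0.51, again with overlapping ranges, and Itpr3 was lowest at 0.42 ± 0.30. With the summed exon length of each gene in place of its longest transcript, Itpr2 (17.1) stood above Itpr1 (14.0). The reads were counted over whole genes, introns included, so reads from introns are part of these values.

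**Figure D1:**
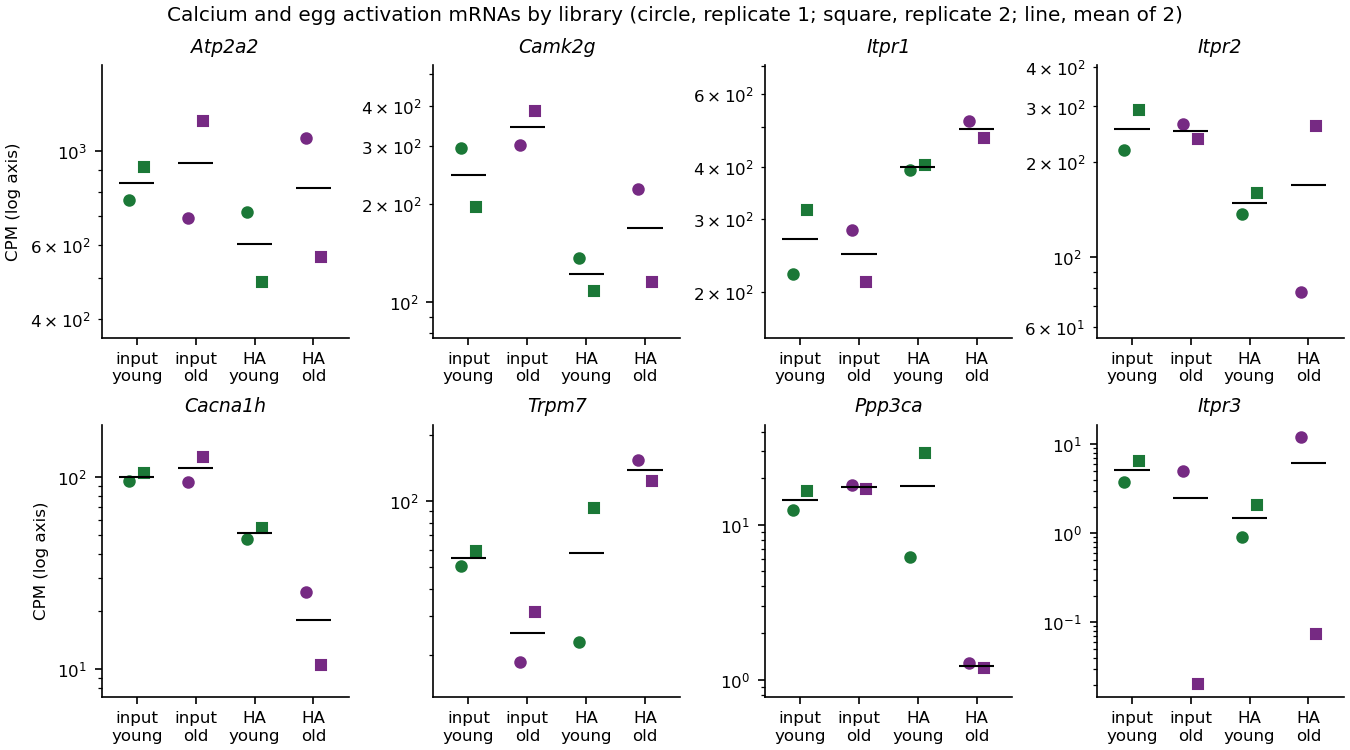
CPM of each gene (log axis) in input and HA libraries of young (green) and old (purple) pools, with replicate 1 as a circle, replicate 2 as a square and the mean of 2 as a line; axes differ between genes. Itpr1 in HA lay at 394 and 405 CPM in the young pools and 517 and 470 CPM in the old pools, while Itpr3 in Old replicate 2 rests on 1 input read and 2 HA reads.

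The IP3 receptor is the release channel of the store, and Itpr1 encodes the type 1 receptor that carries most calcium release in the mouse egg. In input, Itpr1 measured 282 and 211 CPM in Old replicates 1 and 2 and 221 and 315 CPM in Young replicates 1 and 2. The ages overlapped, and the log2 difference of old minus young was -0.11 ± 0.31 (SE; adjusted p = 0.98, limma with Benjamini-Hochberg adjustment). In HA, Itpr1 measured 517 and 470 CPM in the old pools and 394 and 405 CPM in the young pools.

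Both old HA libraries of Itpr1 lay above both young ones, as was the case in this direction for 17.2% of all genes in HA. The log2 difference was 0.30 ± 0.39 (SE, adjusted p = 0.84, limma), smaller than its SE. It turned to -0.33 with quantile normalization and to -0.34 when the libraries were scaled to the same sum. The SE draws on the variance of other genes of similar level. The Itpr1 HA libraries themselves differed 1.10-fold between the old pools and 1.03-fold between the young pools. HA and input were scaled separately, so a TE of 1 is no boundary. TE of Itpr1 lay above the median of all genes in every pool, at 1.84 and 2.22 in the old pools against 1.78 and 1.29 in the young pools. Its rank by TE within a pool, taken on the plain ratio and so independent of the scaling, lay between the 74.1st and the 87.4th percentile of the 8537 genes in both tables, so Itpr1 ranked high in ribosome loading in young and old oocytes alike.

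Itpr2 encodes the type 2 receptor. Its input level was 265 and 237 CPM in the old and 219 and 292 CPM in the young pools, close to that of Itpr1. In HA it measured 77.4 and 260 CPM in the old pools and 137 and 159 CPM in the young pools. The old pools thus lay on either side of the young ones and differed 3.36-fold from each other, and the log2 difference between ages was -0.06 ± 0.70 (SE, adjusted p = 0.99, limma).

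Itpr3, the type 3 receptor, was close to the limit of detection in 1 old pool. Its input libraries held 270 reads in Old replicate 1, 1 read in Old replicate 2, and 261 and 244 reads in the young pools. Its HA libraries held 510 and 2 reads in the old pools and 71 and 117 reads in the young pools. The counts of 1 and 2 reads lie under the 3 reads taken as the floor, so no TE is given for Old replicate 2. The limma fits of input, HA and TE still include this pool. The spread between old pools exceeded any difference between ages (HA log2 difference 0.63 ± 1.31 SE, adjusted p = 0.92, limma).

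Set side by side per kb, the 3 paralogs shared the receptor mRNA differently in the 2 fractions. Itpr1 made up 51.3% to 55.4% of IP3 receptor CPM per kb in the 4 input libraries and 68.1% to 86.8% in the 4 HA libraries. Its ratio to Itpr2 ran from 1.06 to 1.28 in input and from 2.14 to 7.91 in HA. The HA share lay above the input share in all 4 pools, and the old pools marked both ends of the HA range. A share within a library does not depend on how libraries were scaled, but it does depend on the length used. With the summed exon length Itpr1 made up 41.9% to 45.7% in input, below Itpr2, and 59.4% to 81.1% in HA, and its HA share was again above its input share in all 4 pools. With 2 pools per age an exact two-sided permutation test cannot give a p under 0.33, so no test between ages was made of these shares.

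**Figure D2:**
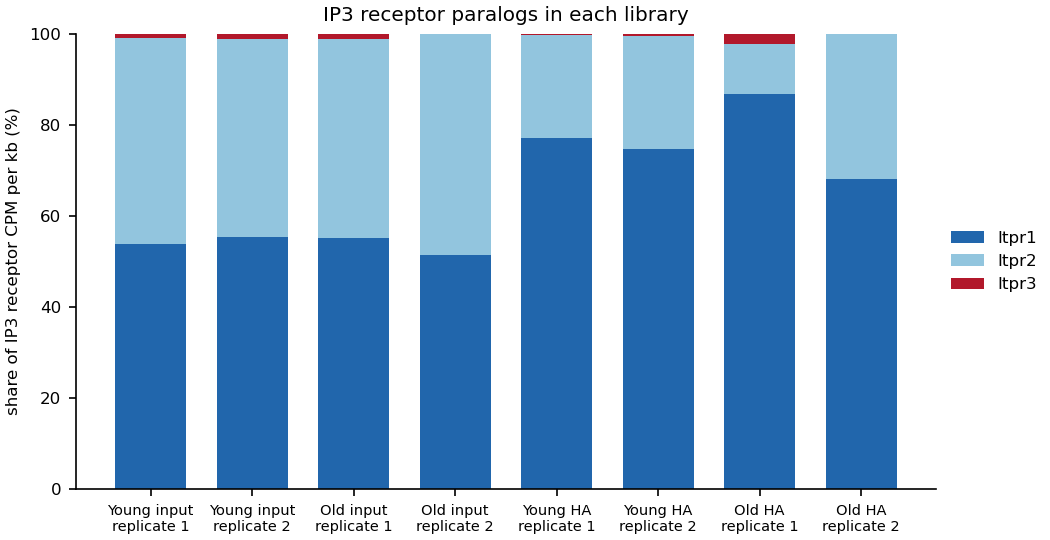
Share of Itpr1, Itpr2 and Itpr3 in the summed CPM per kb (longest coding transcript) of the 3 IP3 receptors (%, y axis) in each library (x axis). Itpr1 took 51.3% to 55.4% in input and 68.1% to 86.8% in HA, and Itpr3 at most 2.23%.

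Atp2a2 measured 694 and 1178 CPM in the old and 765 and 917 CPM in the young input libraries. In HA it measured 1075 and 562 CPM in the old and 715 and 490 CPM in the young pools. In input both young values fell between the old ones and in HA 1 of them did, and the log2 differences were 0.11 ± 0.29 in input (SE, adjusted p = 0.98, limma) and 0.39 ± 0.46 in HA (SE, adjusted p = 0.82, limma), the latter turning to -0.32 with quantile normalization and -0.25 with the same sum. Old replicate 1 had the lower input and the higher HA level of the old pools, so TE of the pump was 1.55 in that pool and 0.48 in Old replicate 2, against 0.93 and 0.53 in the young pools.

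Camk2g measured 304 and 384 CPM in the old and 296 and 195 CPM in the young input libraries. The ages did not overlap in input, although Old replicate 1 and Young replicate 1 were nearly level, and the log2 difference was 0.51 ± 0.31 (SE, adjusted p = 0.82, limma). Of all genes, 16.4% had both old input libraries above both young ones. In HA, Camk2g measured 222 and 115 CPM in the old and 137 and 108 CPM in the young pools, which overlapped.

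TE of Camk2g was 0.73 and 0.30 in the old pools against 0.46 and 0.55 in the young pools. Its percentile by TE ran from 27.4 to 51.2. The kinase mRNA and the Itpr1 mRNA, both abundant in input, thus stood apart in the ranking by ribosome loading, with Itpr1 the higher in all 4 pools.

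Trpm7 had no overlap between ages in input, in HA or in TE. In input it measured 18.7 and 31.5 CPM in the old and 50.8 and 59.1 CPM in the young pools. In HA it measured 155 and 124 CPM in the old and 23.0 and 93.6 CPM in the young pools. The old pools therefore had lower Trpm7 CPM in input and higher CPM in HA. These values are relative to library size and were scaled separately in the 2 fractions, so they give no amount of mRNA. Of all genes, 18.9% had both old input libraries below both young ones, 17.2% both old HA libraries above both young ones and 17.2% both old pools above both young ones in TE. The opposite order of Trpm7 in the 2 fractions was shared by 1.83% of the genes in both tables.

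The input difference of Trpm7 was -1.14 ± 0.56 on the log2 scale (SE, adjusted p = 0.78, limma) and the HA difference 1.55 ± 0.83 (SE, adjusted p = 0.47, limma). TE was 8.30 and 3.93 in the old pools and 0.45 and 1.58 in the young pools, a log2 difference of 2.69 with a 95% confidence interval from 0.30 to 5.09. Its unadjusted p was 0.032 and its adjusted p over all 8537 genes 0.74 (limma). No other gene of the set had an unadjusted p under 0.05 in TE. Of all genes, 6.49% reached an unadjusted p under 0.05 in TE and none an adjusted p under 0.05. The unadjusted p lay on either side of 0.05 when the variance trend of the test was set otherwise, at 0.032 with the mean TE as its covariate, 0.060 with the mean input level and 0.052 with no trend. The young HA libraries differed 4.07-fold from each other, and the percentile of TE was 95.8 and 88.9 in the old pools and 26.6 and 80.6 in the young pools.

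Cacna1h held nearly the same input level in every pool, at 95 and 128 CPM in the old and 96.1 and 105 CPM in the young pools. In HA it measured 25.3 and 10.6 CPM in the old and 47.8 and 54.3 CPM in the young pools. Both old HA libraries lay below both young ones, as did those of 24.7% of all genes. The log2 difference in HA was -1.57 ± 1.02 (SE, adjusted p = 0.60, limma). TE was 0.27 and 0.083 in the old pools against 0.50 and 0.52 in the young pools, a log2 difference of -1.71 ± 1.00 (SE, adjusted p = 0.74, limma). Leaving out 1 pool at a time gave HA differences from -2.17, without Old replicate 1, to -0.98, without Old replicate 2.

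Ppp3ca encodes a catalytic subunit of calcineurin, the calmodulin-dependent phosphatase. Its input level was steady, at 18.0 and 16.99 CPM in the old and 12.5 and 16.5 CPM in the young pools. In HA it measured 1.28 and 1.18 CPM in the old pools, from 54 and 32 reads, and 6.23 and 29.2 CPM in the young pools, from 482 and 1654 reads. The old HA libraries agreed within 1.08-fold and lay below both young ones, which differed 4.68-fold. Higher input and lower HA in both old pools was an order shared by 3.12% of the genes in both tables.

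The HA difference of Ppp3ca was -2.73 ± 1.43 on the log2 scale (SE, adjusted p = 0.46, limma), the largest of the set in size, with an unadjusted p of 0.100. Genes of a similar HA level had a median difference of -0.81, and Ppp3ca stood at the 14.8th percentile among them. TE was 0.071 and 0.070 in the old pools against 0.50 and 1.77 in the young pools, a log2 difference of -2.997 ± 1.60 (SE, adjusted p = 0.74, limma). Unadjusted p-values under 0.05 came from edgeR's likelihood ratio test (0.036) and DESeq2 (0.011) on the reads in HA, with adjusted p of 0.26 and 0.12, where 16.3% and 17.3% of all genes had an unadjusted p under 0.05. The summed cumulus and granulosa markers in HA were also lower in the old pools, as given above, and their part in the differences of Ppp3ca and Cacna1h was not tested.

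**Figure D3:**
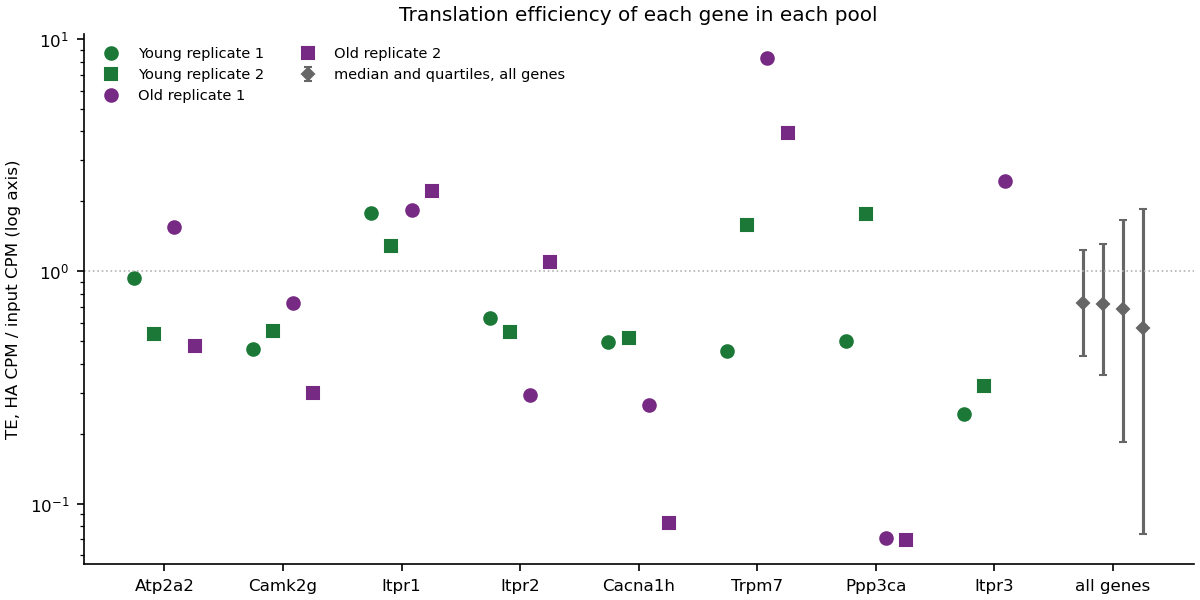
TE (HA CPM over input CPM, log axis) of each gene in each pool, with the median and quartiles of 8537 genes per pool at the right; Itpr3 in Old replicate 2 is left out because it rests on 1 and 2 reads. Trpm7 lay at 8.30 and 3.93 in the old pools and Ppp3ca at 0.071 and 0.070, whereas Itpr1 lay above the median of all genes in all 4 pools.

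Across the 8 genes, none had an adjusted p under 0.05 in input, in HA or in TE (limma). Over all genes this threshold was passed by 0.0095% in input and by none in HA. At an unadjusted p under 0.05 the count was 0 of 8 in input, 0 of 8 in HA and 1 of 8 in TE, against 6.18% of all genes in input and 14.7% in HA. On the reads recovered from the CPM values, edgeR's quasi-likelihood test, its likelihood ratio test and DESeq2 also gave none of the 8 an adjusted p under 0.05. Of all genes, the likelihood ratio test called 0.475% in input and 3.32% in HA at that threshold, DESeq2 1.08% and 5.71%, and the quasi-likelihood test none. The median log2 difference of the 8 genes was 0.05 in input, 0.35 in HA and 0.12 in TE, beside -0.03, -0.14 and -0.10 for all genes. These fits and medians include Itpr3, whose Old replicate 2 lay under the floor. Without Itpr3 the middle TE difference was that of Itpr2, at -0.045. The HA median turned to -0.33 with quantile normalization and to -0.29 with the same sum. The HA difference of all genes depended on level. Genes at the HA level of Itpr1 and Atp2a2 had a median of 0.61, and those at the level of Itpr3 one of -1.02. Among genes of a similar HA level, Itpr1, Atp2a2, Itpr2 and Camk2g stood at the 28.7th, 33.0th, 25.6th and 48.5th percentile. Cacna1h and Ppp3ca stood at the 11.2th and 14.8th, and Trpm7 and Itpr3 at the 87.3rd and 86.5th. The confidence intervals were wide: in HA that of Itpr1, the narrowest, ran from -0.62 to 1.23, and that of Ppp3ca from -6.13 to 0.68.

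**Figure D4:**
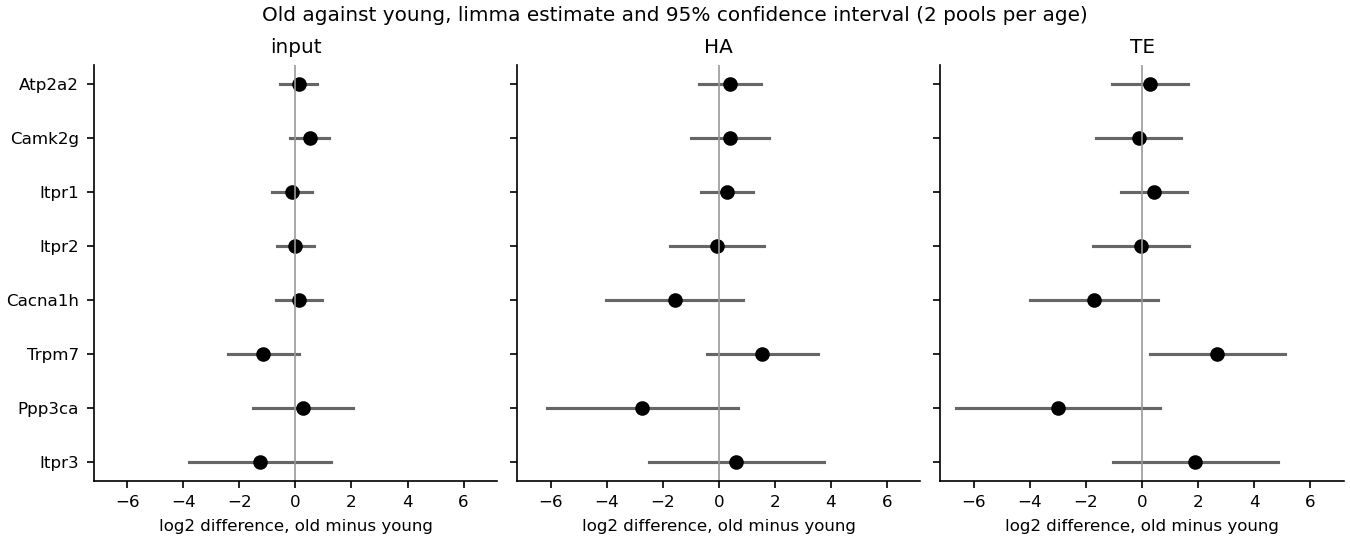
Log2 difference of old minus young (x axis) in input, HA and TE for each gene, as the limma estimate with its 95% confidence interval from 2 pools per age. In input and HA every interval crosses 0, and in TE the interval of Trpm7, from 0.30 to 5.09, does not. Itpr3 is fitted with its Old replicate 2, which rests on 1 input read and 2 HA reads.

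The wider pathway was read from 7 lists of 127 genes, of which 87 were in the input table and 77 in the HA table. None had an adjusted p under 0.05 (limma) in input, HA or TE. At an unadjusted p under 0.05, 6 of 87 were higher and 2 lower in old input, where 2.71% and 3.48% of all genes were. In HA 5 of 77 were higher and 6 lower in the old pools, against 4.28% and 10.5% of all genes. In TE 1 of 75 was higher and 5 were lower, against 2.98% and 3.51%. Whatever the p, 45.9% of all genes had a positive HA difference, and the median of all genes in HA was -0.14. The HA counts and medians of the lists below were not matched for level, on which the HA difference of all genes depended.

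Upstream of the receptor, 12 of 21 genes of IP3 production and turnover were measured in input and 8 in HA. The sperm phospholipase gene Plcz1 was in neither table. Among the 3 most abundant, Plce1, a phospholipase C, had 181 and 254 CPM in old and 331 and 306 CPM in young input, with HA levels of 235 and 205 CPM in old and 158 and 149 CPM in young pools. The order of the ages in input was thus opposite to that in HA, with log2 differences of -0.57 (adjusted p = 0.78, limma) and 0.51 (adjusted p = 0.76, limma). Pi4ka and Plcb1 had HA differences of 0.04 and -1.44.

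For calcium entry, extrusion and mitochondrial uptake, 16 of 27 genes were measured in HA, of which 11 were lower and 5 higher in the old pools, with a median log2 difference of -1.58 and 0 at an unadjusted p under 0.05. The 3 most abundant lay among the higher ones: the Golgi pump Atp2c1 (0.25), the plasma membrane pump Atp2b1 (0.79) and the mitochondrial uniporter Mcu (0.71). Stim2 and Orai1, the other store sensor and the channel it opens, were chosen for mention after their values were seen. Stim2 measured 116 and 98.0 CPM in old and 52.5 and 36.6 CPM in young input, and 9.29 and 6.43 CPM in old and 37.8 and 46.5 CPM in young HA. Its TE difference was -3.56 (adjusted p = 0.74, limma) and that of Orai1 -3.96 (adjusted p = 0.74, limma), each with an unadjusted p under 0.05.

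Of the buffers of the endoplasmic reticulum and the partners of the IP3 receptor, 11 of 12 were measured in HA, 8 higher and 3 lower in old pools, with a median of 0.91. The chaperones Canx and Hspa5 had HA differences of 0.91 and 0.66, and Hsp90b1 one of -1.23, none with an adjusted p under 0.05 (limma). Of the calmodulins, CaM kinases and calcineurin genes, 13 of 24 were measured in HA, 7 higher and 6 lower. Camk1d and Cabin1, a kinase and an inhibitor of calcineurin, had HA differences of 0.85 and 0.39.

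Downstream, 5 of 10 protein kinase C genes were measured in HA, 4 higher and 1 lower, with Prkch, Prkci and Prkcb at 0.08, 0.23 and 0.19. With Old replicate 1 left out the difference of Prkci was 3.03, so its old pools lay far apart. Of the genes of cortical granule exocytosis, 15 of 23 were measured in HA, 10 higher and 5 lower. Rph3a, a rabphilin that binds secretory vesicles, had 660 and 416 CPM in old and 172 and 177 CPM in young HA (log2 difference 1.58, adjusted p = 0.30, limma). Nsf and Syt1, of the fusion machinery, had HA differences of 0.05 and 0.08.

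Of the genes of meiotic exit and zinc release, 9 of 10 were measured in HA, 6 higher and 3 lower in old pools. Wee2, the oocyte kinase that inhibits CDK1 and is itself a target of CaMKII, had 1206 and 1543 CPM in old and 686 and 737 CPM in young HA (log2 difference 0.94, adjusted p = 0.31, limma). The zinc transporters Slc39a10 and Slc39a6 had HA differences of 0.92 and 0.49. Fbxo43 (EMI2), which holds the metaphase II arrest until CaMKII marks it for destruction, was chosen for mention after its values were seen. It had 251 and 340 CPM in old and 73.8 and 67.8 CPM in young HA and 163 and 154 CPM in old and 62.8 and 65.7 CPM in young input, with log2 differences of 2.03 (adjusted p = 0.30, limma) and 1.29 (adjusted p = 0.78, limma).

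**Figure D5:**
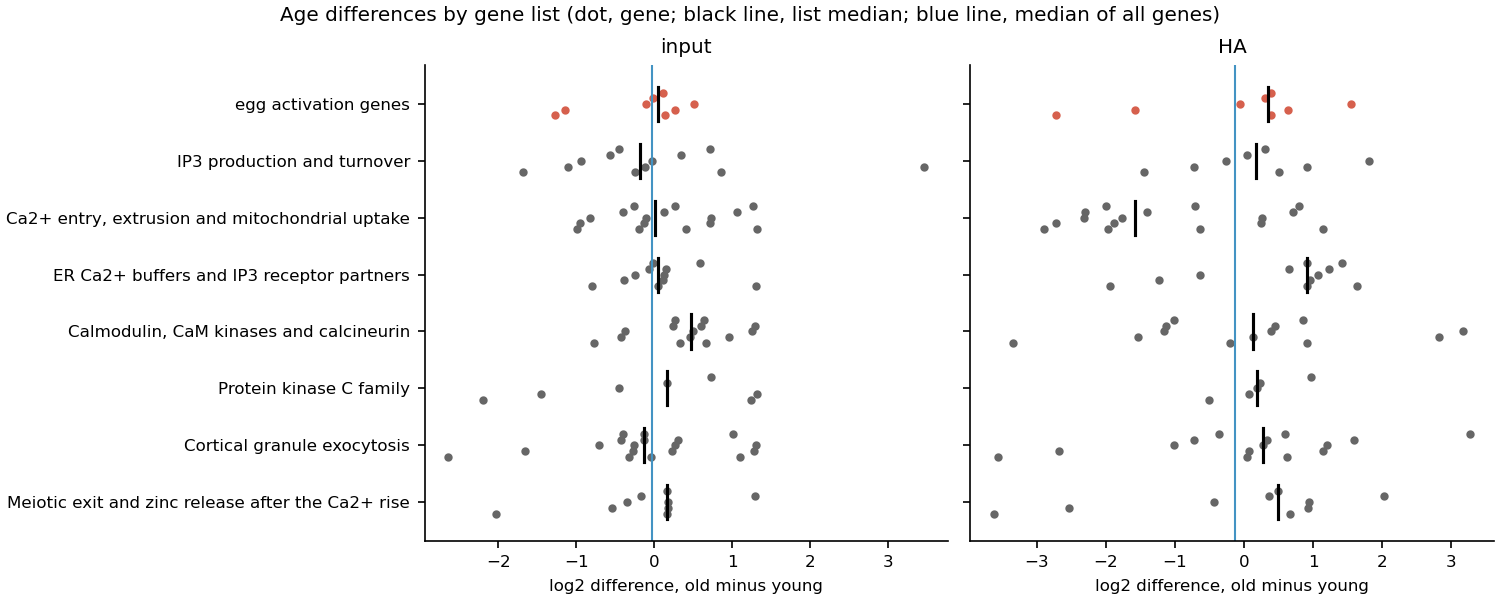
Log2 difference of old minus young (x axis) in input and HA for each measured gene of the 8 egg activation genes and of 7 pathway lists; black lines are list medians and the blue line the median of all genes. The HA median was -1.58 for calcium entry, extrusion and mitochondrial uptake and 0.91 for endoplasmic reticulum buffers, and no gene shown had an adjusted p under 0.05. The blue line takes in genes of every level. The lists were not matched for level, on which the HA difference of all genes depended.

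The genes whose levels followed Itpr1 most closely over the 8 libraries, each table centred on its own mean, were Bbs4 (Pearson r = 0.95), Rbbp8 (0.93) and Atl1 (0.93), out of 5304 genes with a mean of at least 10 CPM in both tables. For Camk2g they were Prickle1 (0.98), Nudt4 (0.96) and Asap1 (0.96). The points share lysates and scaling, and the values are given as a description.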

How the data were processed

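The deposited values are signal values, namely CPM that the authors scaled with edgeR's TMM method separately for HA and input, after Trimmomatic 0.36, HISAT2 alignment to GRCm38/mm10 and unstranded HTSeq counting over whole genes of GENCODE M11. Whole reads were recovered from 100% of values (tolerance 0.01). Every gene held at least 1 CPM before scaling in at least 2 libraries. A log2 difference is on the log2(CPM + 1) scale, which understates changes of low genes. Old and young were compared with limma 3.58.1 (lmFit, eBayes with trend, R 4.3.3), two-sided, Benjamini-Hochberg over all genes of a table. For TE, log2(HA + 1) minus log2(input + 1) was fitted per pool. Percentiles of TE rank the plain ratio. The covariate of its trend, the mean log2 level over HA and input, was settled after 4 versions had been run and their values for these genes seen, and the other 3 are reported as alternatives.

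On recovered reads, edgeR 4.0.16's quasi-likelihood test gave 0 input and 0 HA genes an adjusted p under 0.05, its likelihood ratio test 50 and 295, and DESeq2 1.42.0 114 and 508. Scripts were tested on simulated data. Gene positions, lengths and 3′-UTRs came from GENCODE M21, of the same build. The genes, pathway lists and markers were chosen with earlier results of these data known. All 8 genes were named; from each pathway list the 3 with the highest mean input CPM were named, with any gene with an adjusted p under 0.05. One gene that this rule names is not reported here. Pools are the replicates, from 1 experiment, with 2 pools per age. The limma SE, intervals and p-values draw each gene's variance toward a trend over all genes. They therefore do not measure the spread between a gene's own pools alone. Limits of counting cover counting error only: 3 reads equal 0.039 to 0.11 CPM in HA and 0.044 to 0.079 in input. Overlapping genes of the 8 genes had no row in either table.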

Additional observations from a re-analysis of the deposited data

Results flagged for a closer look

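The genes of the set, the 3 most abundant of each pathway list, and Stim2, Orai1 and Fbxo43 were compared between input and HA. Of these, 6 had both old pools on one side of both young pools in input and on the other side in HA. Other genes named in the text were not counted. Stim2, Orai1 and Fbxo43 were chosen after their values were seen. The count of 6 therefore cannot be set against the shares of all genes given here. Trpm7 and Plce1 were lower in old input and higher in old HA, an order shared by 1.83% of the 8537 genes in both tables, with TE differences of 2.69 and 1.08 on the log2 scale (adjusted p = 0.74 each, limma). Ppp3ca, Plcb1, Stim2 and Orai1 were higher in old input and lower in old HA, an order shared by 3.12% of those genes, with TE differences of -2.997, -2.30, -3.56 and -3.96 (adjusted p = 0.74 each, limma). The input difference of Ppp3ca was small, at 0.27 on the log2 scale. Gaps between the ages were narrow for Orai1, at 86.1 and 136 CPM in old and 84.3 and 30.9 CPM in young input. In HA Orai1 had 19.6 and 1.15 CPM in old and 102 and 22.5 CPM in young pools. Plcb1 had 25.0 and 4.40 CPM in old and 27.6 and 35.4 CPM in young HA. The old HA libraries differed 17.1-fold for Orai1 and 5.69-fold for Plcb1. The test of the difference itself, on TE, gave none of the 6 an adjusted p under 0.05. Stim2, Orai1 and Trpm7 had an unadjusted p under 0.05 (limma).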

How the results depend on the processing

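No gene of the set had an adjusted p under 0.05 in input, HA or TE under any alternative run, and of 355 alternative values for single genes 315 kept their direction. The values below are log2 differences of old minus young, or counts of genes at an unadjusted p under 0.05 unless an adjusted one is named. With 2 pools per age, small differences turned with the scaling, and the HA scaling matters most: scaling to the same sum moved the median of all genes by -0.17 in input, -0.55 in HA and -0.38 in TE, and scaling by the median log2 ratio moved it by 0.02, 0.18 and 0.17. Of the genes at an unadjusted p under 0.05 in HA, 29.1% were higher in old with the deposited scaling, 52.4% with quantile normalization, 8.03% after scaling to the same sum and 37.3% after the median log2 ratio.

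The median of the 8 genes in input (0.05) was 0.11 under a filter of 10 CPM in 2 libraries, -0.094 with quantile normalization, -0.14 with the same sum and 0.081 with DESeq2. In HA (0.35) it was 0.14 with a pseudocount of 0.1 CPM, -0.33 with quantile normalization, -0.29 with the same sum, 0.56 with the median log2 ratio and 0.58 with DESeq2. In TE (0.12) it was -0.39 with quantile normalization and -0.33 with the same sum. The count of the 8 genes rose from 0 to 1 in input with the same sum (Trpm7), and in HA without the trend, with the likelihood ratio test and with DESeq2 (1 each, Ppp3ca). In TE it fell from 1 to 0 with the same sum and with the trend on the mean input level.

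The covariate of the TE trend was settled after its 4 versions had been seen. The unadjusted p of Trpm7 was 0.032, 0.032, 0.060 and 0.052 with the mean level, the mean TE, the mean input level and no trend, and that of Ppp3ca 0.094, 0.052, 0.070 and 0.029. The count over all genes was 554, 560, 571 and 644, and none had an adjusted p under 0.05 in any version.

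The count of pathway genes in input (8) was 5 with the 10 CPM filter. In HA (11) it was 6 with that filter, 4 with quantile normalization and 7 with the quasi-likelihood test, and in TE (6) 3 with the filter and 3 with quantile normalization. DESeq2 gave 1 pathway gene an adjusted p under 0.05 in input (Pip5k1a, of 1.08% of all genes) and 3 in HA (Mt1, Vamp1 and Stxbp3, of 5.71%).

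Leaving out 1 pool at a time, the lone pool being assumed to vary like the rest, gave the 8 genes a median from -0.12 to 0.20 in input, from -0.074 to 0.62 in HA and from -0.051 to 0.40 in TE. Their count ran from 0 to 1 in input, 0 to 1 in HA and 0 to 2 in TE. In TE both this count and that of pathway genes were 0 without either young pool, while the TE difference of Trpm7 was 1.81 without Young replicate 1 and 3.58 without Young replicate 2. The pathway count ran from 2 to 12 in input, 6 to 24 in HA and 0 to 20 in TE, and in HA the count with an adjusted p under 0.05 ran from 0 to 5. Without Old replicate 1 those genes were Fbxo43, Orai1, Prkci, Snap23 and Stxbp3, with HA differences of 2.25, -4.52, 3.03, 2.63 and 5.12. Without Young replicate 2 it was Calm3, with -1.75. The counts with a pool left out are given without the share of all genes under the same setting. Each of these fits has 1 pool in an age, so no conclusion is drawn from these counts.

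The following 40 directions turned, single pools left out included. With quantile normalization, Atp2a2 input was -0.027, Camk2g HA was -0.13, Atp2a2 HA was -0.32, Itpr1 HA was -0.33, Atp2a2 TE was -0.30, Itpr1 TE was -0.070. With same sum, Cacna1h input was -0.056, Atp2a2 input was -0.079, Camk2g HA was -0.24, Atp2a2 HA was -0.25, Itpr1 HA was -0.34, Atp2a2 TE was -0.17, Itpr1 TE was -0.036. With median log2 ratio, Itpr2 input was 0.0092, Itpr2 HA was 0.15, Camk2g TE was 0.079, Itpr2 TE was 0.14. With pseudocount 0.1 CPM, Itpr3 HA was -0.025. With edgeR likelihood ratio test on reads, Itpr2 HA was 0.19. With edgeR quasi-likelihood test on reads, Itpr2 HA was 0.19. With DESeq2 on reads, Itpr2 HA was 0.43. Leaving out 1 pool gave ranges that crossed 0: Cacna1h input -0.081 to 0.35, Atp2a2 input -0.27 to 0.49, Itpr1 input -0.37 to 0.14, Itpr2 input -0.22 to 0.20, Itpr3 input -2.55 to 0.00089, Camk2g HA -0.071 to 0.86, Atp2a2 HA -0.076 to 0.86, Itpr2 HA -0.93 to 0.81, Itpr3 HA -1.17 to 2.44, Camk2g TE -0.74 to 0.53, Atp2a2 TE -0.57 to 1.13, Itpr2 TE -0.99 to 0.90.

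The replicate numbers pair no animals, and the deviations of same-numbered pools correlated by 0.03 in input and 0.09 in HA. With the replicate block the counts of the 8 genes stayed at 0, 0 and 1, and the pathway counts were 8 in input, 12 in HA and 5 in TE.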
